A study of Mus musculus with 6 samples.

Results

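The genes described here encode the machinery of mitosis: the cyclins and kinases that drive entry, the kinetochore, the spindle assembly checkpoint, the passenger complex, condensin and the proteins of the spindle and of cytokinesis. The list holds 47 genes, without kinesins other than Cenpe, out of 20659 genes named on the array. Its members were taken as every non-control probe whose printed RefSeq accession belongs to a listed symbol, which gave 64 probes. All 47 genes were measured, 63 of the probes passed the filter on dim signal, and 46 genes were well above background on all 6 arrays.

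Expression was measured in C2C12, an established mouse myoblast line, on single-colour Agilent arrays. Cells grown in 10% fetal bovine serum to near confluence were transfected with a non-targeting small interfering RNA (si-NC, 3 arrays) or with one that targets SYISL, a long non-coding RNA (si-SYISL, 3 arrays). Both groups were then kept for 2 days in medium with 2% horse serum, which starts differentiation, so every array comes from differentiating cultures and none from proliferating ones. The knockdown of SYISL itself was not analysed here, and no label states that the replicates are cultures of their own, so p-values reflect the scatter of these samples alone, which may be technical.

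In a dividing cell, cyclin-dependent kinase 1 bound to A- and B-type cyclins starts mitosis, Aurora and Polo-like kinases build the spindle, and the kinetochore ties each chromosome to it. The checkpoint holds the anaphase-promoting complex back until all chromosomes are attached, after which cyclins and securin are destroyed and the cell divides. Myoblasts leave the cell cycle before they fuse into myotubes, and most genes of this list are transcribed mainly in G2 and M phase. Many of them carry in the promoter a cell cycle genes homology region (CHR), bound by the DREAM and MuvB complexes, beside CCAAT boxes bound by NF-Y.

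Promoter windows are shown because the listed genes share these elements, which the choice of members did not use. The RefSeq table used here, on build GRCm38.p6, holds windows from 250 bases before to 50 after the start for 39 of the 47 genes, 44 windows in all. Both strands were searched for the CHR letters TTTGAA and TTCGAA and for CCAAT. A CHR match lay in at least 1 window of 29 of the 39 genes (74.4%), against 21.7% of the 27025 genes of the table, and a CCAAT match in 32 (82.1%), against 41.1%. Both elements were present for 27 genes (69.2%, against 8.61% of all genes). From 60 bases before to 50 after the start, a CHR match was present for 27 of the 39 (69.2%), against 6.79%.

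In the 8 windows printed here, capitals mark CHR and CCAAT matches on either strand, and positions count from 1 at the first transcribed base. The windows of Ccnb2 at chr9:70421505-70421804 (minus strand), Cdk1 at chr10:69352863-69353162 (minus strand), Plk1 at chr7:122159185-122159484 (plus strand) and Cdc20 at chr4:118437294-118437593 (minus strand) have CCAAT boxes and a CHR match that begins at position 5, -15, 31 and -18. Ube2c at chr2:164769679-164769978 (plus strand) had the largest difference among the genes with a window. Its capitals include CCAATTGG, where 2 matches overlap. Top2a at chr11:99024140-99024439 (minus strand) holds 6 CCAAT matches and 4 CHR matches. Mki67 at chr7:135716330-135716629 (minus strand) had the smallest difference, and its CHR matches lie farther out, at -116 and -98. Pttg1 at chr11:43425932-43426231 (minus strand) holds neither element.
Ccnb2: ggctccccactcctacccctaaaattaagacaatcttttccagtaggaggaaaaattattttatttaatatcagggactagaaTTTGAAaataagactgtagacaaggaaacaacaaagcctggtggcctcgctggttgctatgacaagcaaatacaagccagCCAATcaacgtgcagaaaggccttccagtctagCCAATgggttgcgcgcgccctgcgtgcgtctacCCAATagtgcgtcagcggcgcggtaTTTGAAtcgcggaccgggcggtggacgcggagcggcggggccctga
Cdk1: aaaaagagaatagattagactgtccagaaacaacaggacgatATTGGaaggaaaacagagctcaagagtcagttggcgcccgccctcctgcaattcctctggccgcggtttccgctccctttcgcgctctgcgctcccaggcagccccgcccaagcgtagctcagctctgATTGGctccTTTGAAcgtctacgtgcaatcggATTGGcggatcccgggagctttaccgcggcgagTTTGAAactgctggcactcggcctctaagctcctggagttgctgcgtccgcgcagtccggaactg
Plk1: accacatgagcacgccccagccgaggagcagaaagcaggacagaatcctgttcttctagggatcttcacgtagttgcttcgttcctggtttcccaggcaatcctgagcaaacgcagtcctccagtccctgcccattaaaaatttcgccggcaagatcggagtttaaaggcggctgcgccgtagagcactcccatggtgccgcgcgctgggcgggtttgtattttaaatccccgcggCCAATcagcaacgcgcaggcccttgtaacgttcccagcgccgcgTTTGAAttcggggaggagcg
Cdc20: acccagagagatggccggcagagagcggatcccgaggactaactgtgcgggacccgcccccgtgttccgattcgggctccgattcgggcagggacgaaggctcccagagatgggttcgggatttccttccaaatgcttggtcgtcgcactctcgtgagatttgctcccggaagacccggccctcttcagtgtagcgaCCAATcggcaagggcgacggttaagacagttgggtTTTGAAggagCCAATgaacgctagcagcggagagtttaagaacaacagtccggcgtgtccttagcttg
Ube2c: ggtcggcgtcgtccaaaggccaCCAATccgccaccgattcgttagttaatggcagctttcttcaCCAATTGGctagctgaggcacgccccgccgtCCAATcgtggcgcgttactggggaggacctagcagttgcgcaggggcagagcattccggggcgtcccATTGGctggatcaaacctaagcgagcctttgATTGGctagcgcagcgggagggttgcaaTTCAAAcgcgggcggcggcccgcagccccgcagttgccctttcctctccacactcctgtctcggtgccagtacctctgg
Top2a: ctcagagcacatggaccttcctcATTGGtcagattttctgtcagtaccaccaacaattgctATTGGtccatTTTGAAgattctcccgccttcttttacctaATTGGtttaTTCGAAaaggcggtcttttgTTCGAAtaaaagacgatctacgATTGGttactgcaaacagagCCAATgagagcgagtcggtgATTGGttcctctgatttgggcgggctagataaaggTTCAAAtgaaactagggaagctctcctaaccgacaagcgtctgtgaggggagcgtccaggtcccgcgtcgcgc
Mki67: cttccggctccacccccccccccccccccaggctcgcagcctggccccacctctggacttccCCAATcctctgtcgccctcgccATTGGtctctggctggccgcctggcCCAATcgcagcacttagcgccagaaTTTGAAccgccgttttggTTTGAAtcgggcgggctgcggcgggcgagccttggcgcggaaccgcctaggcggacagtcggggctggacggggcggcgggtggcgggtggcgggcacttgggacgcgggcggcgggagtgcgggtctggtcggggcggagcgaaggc
Pttg1: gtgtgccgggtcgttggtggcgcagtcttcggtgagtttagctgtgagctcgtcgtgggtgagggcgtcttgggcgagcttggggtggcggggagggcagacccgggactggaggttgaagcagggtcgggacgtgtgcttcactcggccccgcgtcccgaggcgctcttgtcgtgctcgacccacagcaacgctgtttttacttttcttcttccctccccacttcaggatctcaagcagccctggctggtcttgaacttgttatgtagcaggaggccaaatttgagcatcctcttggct

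**Figure D1:**
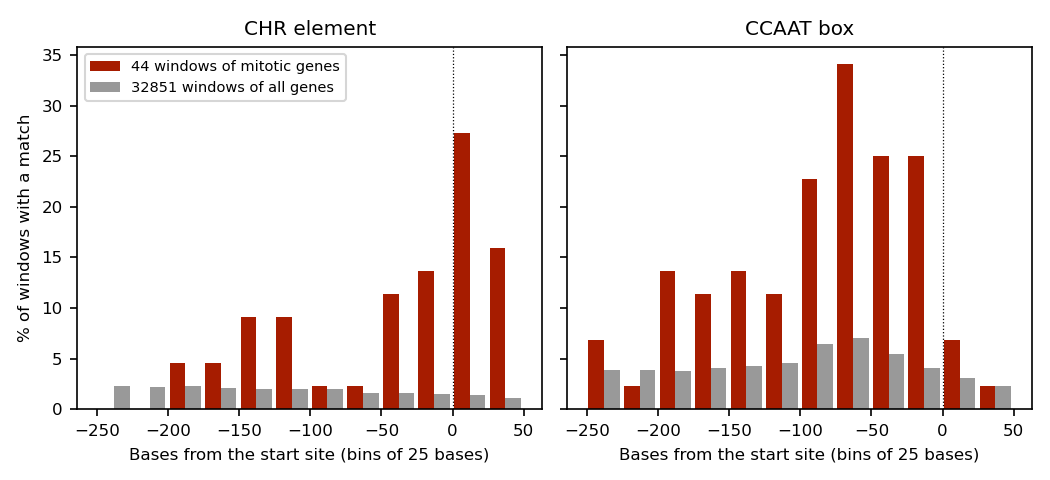
Share of promoter windows (vertical axis, %) with a CHR match (left) or a CCAAT match (right) that begins in each bin of 25 bases, against the distance from the start site (horizontal axis, bases), for the 44 windows of the mitotic genes and the 32851 windows of all genes. CHR matches of the mitotic genes gather around the start, with 27.3% of windows in the bin that begins at the start site against 1.43% of all windows.

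Genes with and without a CHR match had the same median difference. The 29 genes with a CHR match had a median difference of -0.62, from -1.12 to -0.17, and the 10 without had a median of -0.62, from -0.80 to -0.29. The differences themselves are described in what follows. A match is a run of letters, other spellings of the element were not searched, and binding was not measured. Lmnb1, which had the largest difference of the list, was among the 8 genes without a window.

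Before the values, a limit of the arrays has to be stated. In si-NC and in si-SYISL the arrays of replicates 1 and 3 were closer to each other than repeated spots of one probe are, with a chi-square per probe of 0.23 and 0.235 over 399 replicated probes, against 24.6 to 163 in the other 13 pairs of arrays. The spot-to-spot deviations within probes correlated at 0.86 in the si-NC pair, at 0.79 in the si-SYISL pair and at 0.27 to 0.43 elsewhere, and the file headers give both arrays of such a pair the same position. Each such pair was averaged and counted as 1 sample, which leaves 2 samples in each group. Between 78.2% and 84.6% of spots were well above background on the si-NC arrays and between 87.9% and 90.6% on the si-SYISL arrays, and the part of this gap in the results was not tested. So few arrays limit the precision of every value.

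Levels are log2 signals relative to the 75th percentile of the array, given first for the sample of replicates 1 and 3 and then for replicate 2. Over all 28553 features si-SYISL exceeded si-NC by a median of 0.16, so each difference (si-SYISL minus si-NC, ± SE, n = 2 samples in each group) is given after subtraction of that 0.16, while p-values test the difference before it. Levels are compared between samples for 1 gene and not between genes.

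All 47 mitotic genes lay below the median of all features in the si-SYISL comparison. Their median difference was -0.61 (log2), from -1.20 for Lmnb1 to -0.17 for Mki67. In 30 of the 47 both si-SYISL samples were below both si-NC samples, which held for 15.8% of all features, and in 0 were both above, which held for 46.3% of all features. Some of these separations were wide, as for Lmnb1 (lowest si-NC sample -0.41, highest si-SYISL sample -1.41), and several were narrow. In the same order Ccnf stood at -1.11 and -1.16, Prc1 at 2.24 and 2.19 and Top2a at -0.44 and -0.53. The near-identical arrays of a group differed by up to 0.11 for a member. No gene passed the threshold over all features: limma called 0 of the 47 and 0 of the 28553 (0%) at the 0.05 level after adjustment, and the list's lowest adjusted p was 0.0847. Of the members 13 were lower with an unadjusted p under 0.05 and 0 were higher, against 5.85% of all features lower. Over all features 1670 were lower and 4790 higher at that level, a share of 74.1% higher, which was 51.6% with quantile normalisation and 46.9% with the median subtracted. With these scalings 32 and 33 members had non-overlapping lower samples, against 24.1% and 25% of all features. In a culture, fewer dividing cells and less mitotic RNA in each cell cannot be told apart.

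**Figure D2:**
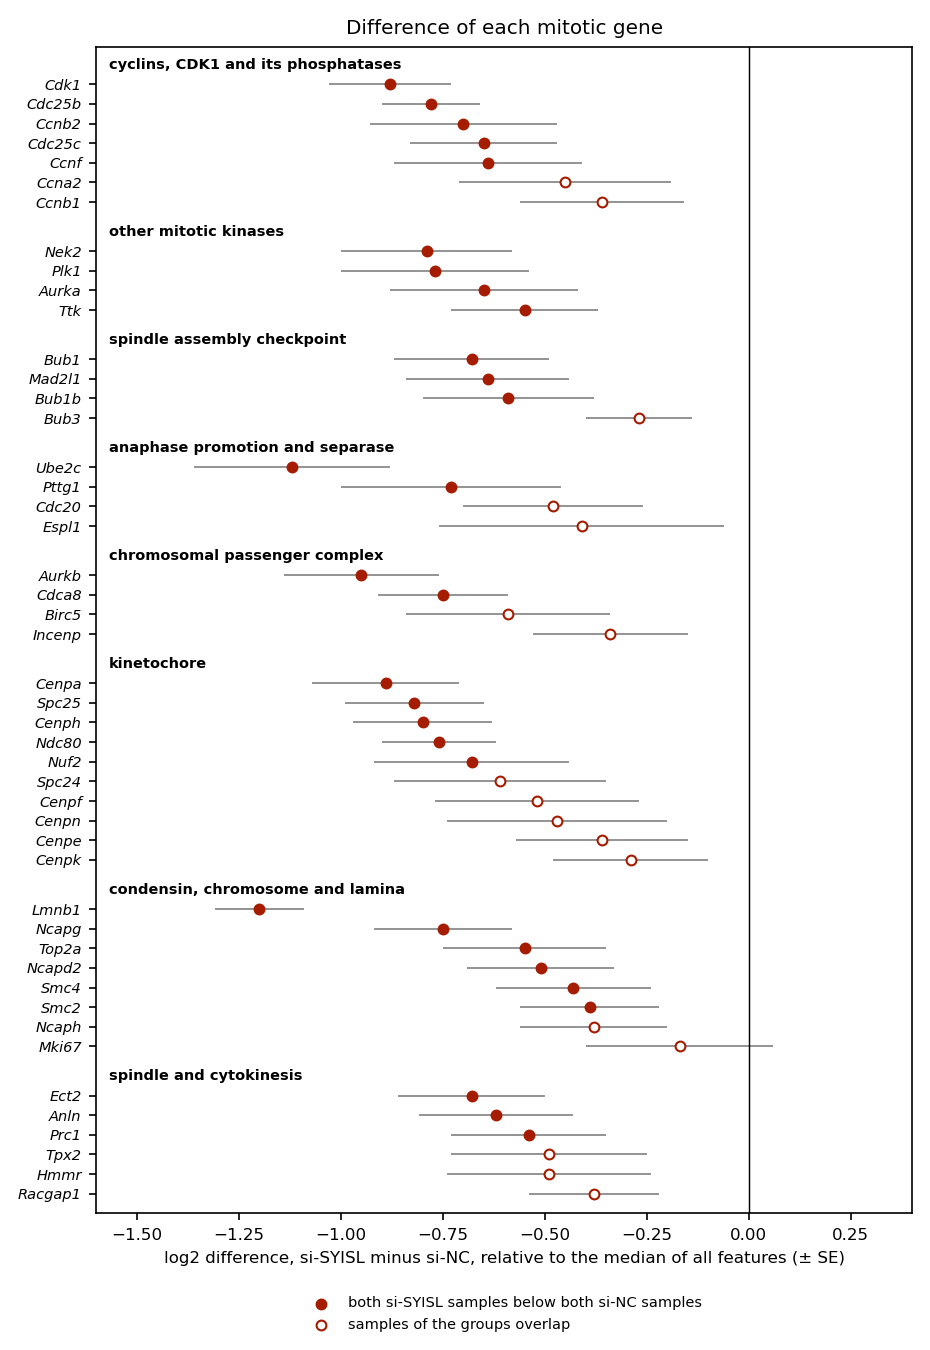
Log2 difference of each of the 47 genes, si-SYISL minus si-NC, relative to the median of all features (horizontal axis), with SE bars from 2 samples in each group and genes ordered within 8 roles. Every point lies left of 0, and the 30 filled points mark genes whose samples do not overlap between the groups.

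The signal of these genes was not spread evenly over the samples. Averaged over the 47 genes, si-NC stood at -0.18 and 0.13 and si-SYISL at -0.29 and -0.64. In 39 of the 47 (83%) si-NC replicate 2 was the highest of the 4 samples and si-SYISL replicate 2 the lowest, a pattern found in 4.33% of all features. Within each group most members also differed the same way between samples. Replicate 2 was above the sample of replicates 1 and 3 in si-NC for 43 members, with a median gap of 0.34 (all features 0.00), and below it in si-SYISL for 46, with a median gap of -0.34 (all features 0.09). Between the samples of replicates 1 and 3 alone, the median over the members was -0.08 before subtraction (all features 0.10) and 30 members were lower in si-SYISL, against 36.6% of all features. Between the replicate 2 samples it was -0.78 (all features 0.20) and 47 were lower, against 29%.

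Without si-NC replicate 2 the median difference of the list was -0.43 and 7 members were lower at an unadjusted p under 0.05 (3.66% of all features). Without si-SYISL replicate 2 these values were -0.36 and 5 (6.01%). Without the sample of replicates 1 and 3 they were -0.79 and 26 (5.53%) for si-NC, and -0.83 and 20 (3.07%) for si-SYISL. Without the sample of replicates 1 and 3 of si-NC or of si-SYISL, 45 members had non-overlapping lower samples, against 23.8% and 20.5% of all features. Without replicate 2 of si-NC or of si-SYISL the count was 30, against 21.8% and 26.3%. Replicates 1 and 2 came from 1 scan and replicate 3 from another. Within the first scan the list's median was -0.61, and in the second, with 1 array in each group and no replicate 2, it was -0.18. Averaged over the members, the arrays of replicates 1 and 3 stood at -0.18 and -0.18 in si-NC and at -0.30 and -0.29 in si-SYISL. The scans thus differed here in whether they held replicate 2.

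**Figure D3:**
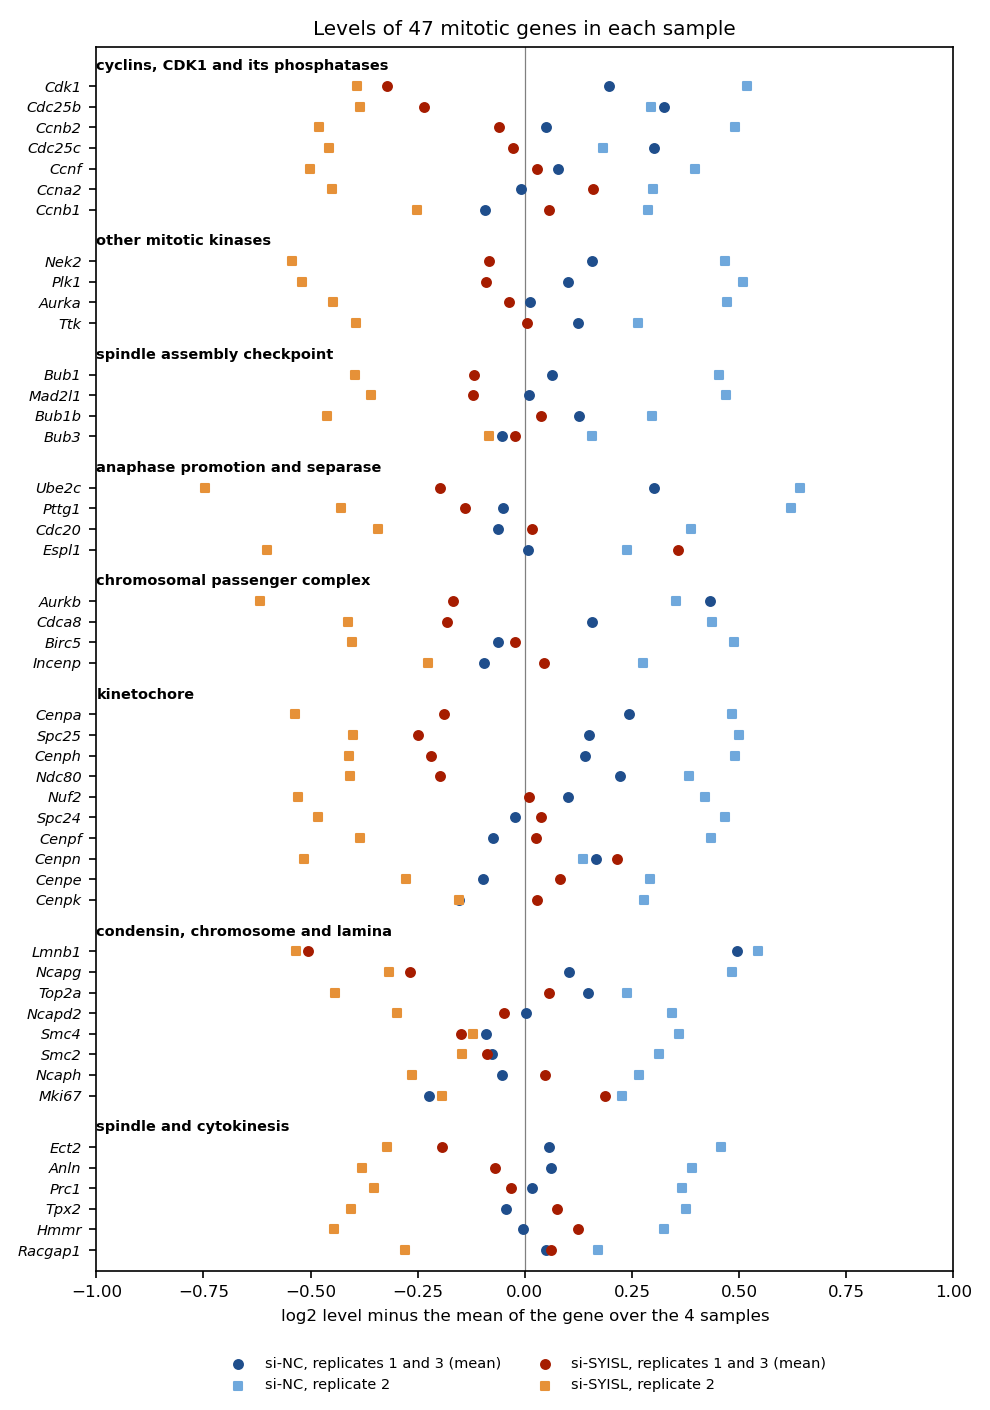
Log2 level of each gene in the 4 samples minus the gene's mean over them (horizontal axis), with genes ordered within 8 roles. For most genes si-NC replicate 2 lies at the right and si-SYISL replicate 2 at the left, and the samples of replicates 1 and 3 lie between them and often close together.

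**Figure D4:**
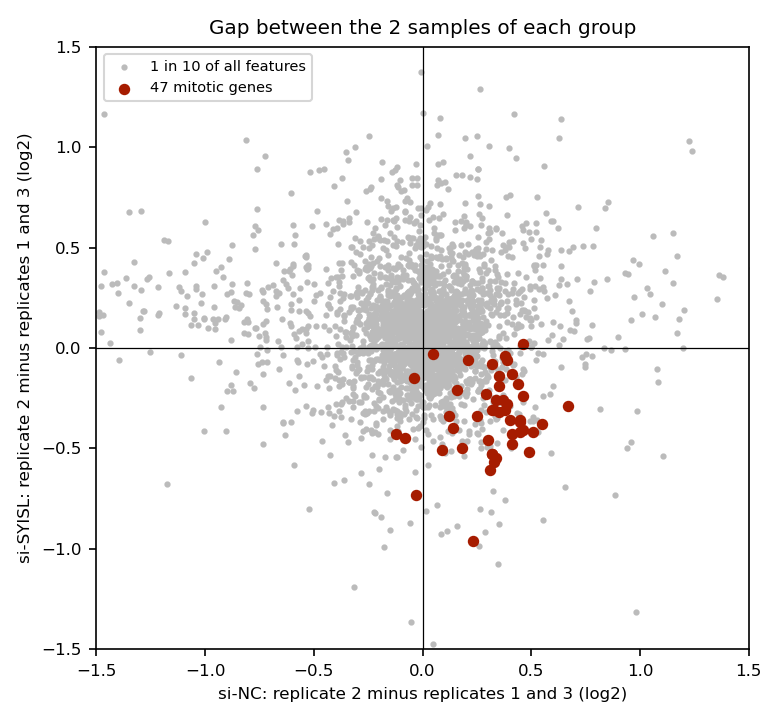
Gap in log2 level between replicate 2 and the sample of replicates 1 and 3, in si-NC (horizontal axis) and in si-SYISL (vertical axis), for the 47 genes and 1 in 10 of all features, of which 36 of 2856 lie beyond the axes. The mitotic genes gather at the lower right, where 42 of the 47 have a gap above 0 in si-NC and below 0 in si-SYISL, against 17.8% of all features.

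Among the 7 cyclins, kinase and phosphatases of mitotic entry, 5 had non-overlapping lower samples, against 15.8% of all features. At an unadjusted p under 0.05, 2 were lower, against 5.85%. Cdk1, the kinase that drives cells into mitosis, stood at 0.52 and 0.84 in si-NC and at 0.00 and -0.07 in si-SYISL. Its difference was -0.88 ± 0.15 (adjusted p = 0.136). Cdc25b, a phosphatase that removes the inhibitory phosphates of CDK1, stood at 0.91 and 0.88 in si-NC and at 0.35 and 0.20 in si-SYISL, a difference of -0.78 ± 0.12 (adjusted p = 0.127). For both genes the groups lay apart, and for Cdc25b the samples within a group lay close. Ccnb1, which encodes cyclin B1, stood at 1.03 and 1.41 against 1.18 and 0.87, so the groups overlapped (-0.36 ± 0.20, adjusted p = 0.537). Its partner gene Ccnb2 differed by -0.70, Cdc25c by -0.65 and Ccnf, a cyclin that serves a ubiquitin ligase, by -0.64, all without overlap. Ccna2, the A-type cyclin of S phase and mitotic entry, differed by -0.45 with overlap.

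All 4 of the other mitotic kinases had non-overlapping lower samples, against 15.8% of all features. Only 1 was lower at an unadjusted p under 0.05, against 5.85%. That gene was Nek2, a kinase of centrosome separation, at -0.54 and -0.23 in si-NC and -0.78 and -1.24 in si-SYISL (-0.79 ± 0.21, adjusted p = 0.202). Plk1, the Polo-like kinase, stood at -0.08 and 0.33 in si-NC and at -0.27 and -0.70 in si-SYISL (-0.77 ± 0.23, adjusted p = 0.222). Aurka, the Aurora kinase of spindle poles, was at -0.14 and 0.32 against -0.19 and -0.60 (-0.65 ± 0.23, adjusted p = 0.283). For Aurka the sample of replicates 1 and 3 was nearly level between the groups, and replicate 2 made the gap. Ttk, the checkpoint kinase also known as Mps1, differed by -0.55.

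Of the 4 checkpoint genes 3 had non-overlapping lower samples, against 15.8% of all features, and 0 an unadjusted p under 0.05, against 5.85% lower. Bub1, a kinase of the outer kinetochore, stood at 0.20 and 0.59 in si-NC and at 0.02 and -0.26 in si-SYISL (-0.68 ± 0.19, adjusted p = 0.221). Mad2l1 encodes the inhibitor of Cdc20 in the checkpoint complex. It stood at 1.49 and 1.95 against 1.36 and 1.12 (-0.64 ± 0.20, adjusted p = 0.254). Bub1b, which encodes BubR1, differed by -0.59. Bub3, their binding partner, was at 2.63 and 2.84 against 2.66 and 2.60, so its groups overlapped (-0.27 ± 0.13, adjusted p = 0.615).

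Among the 4 genes of anaphase, 2 had non-overlapping lower samples and 1 an unadjusted p under 0.05, against 15.8% and 5.85% of all features. Ube2c, the ubiquitin-conjugating enzyme of the anaphase-promoting complex, stood at 1.42 and 1.76 in si-NC and at 0.92 and 0.37 in si-SYISL. Its difference of -1.12 ± 0.24 (adjusted p = 0.156) was the second largest of the list, and the groups lay apart. Pttg1, which encodes securin, stood at 1.53 and 2.20 against 1.44 and 1.15 (-0.73 ± 0.27, adjusted p = 0.276). Cdc20, the activator of the complex, differed by -0.48 with overlap. Espl1, the protease separase that securin holds back, was at -2.45 and -2.22 in si-NC and at -2.10 and -3.06 in si-SYISL. Its 2 si-SYISL samples were the highest and the lowest of the 4 (-0.41 ± 0.35, adjusted p = 0.669), and without si-SYISL replicate 2 its difference turned to 0.12.

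In the chromosomal passenger complex, which corrects wrong attachments and guides cytokinesis, 2 of 4 genes had non-overlapping lower samples. The same count was lower at an unadjusted p under 0.05, where all features gave 15.8% and 5.85%. Aurkb, its kinase, stood at -6.14 and -6.22 in si-NC and at -6.74 and -7.19 in si-SYISL (-0.95 ± 0.19, adjusted p = 0.146). Its only probe was dim, and it was well above background on 3 of 3 si-NC arrays and 2 of 3 si-SYISL arrays. Aurkb thus passed the filter through the si-NC arrays alone, and it is counted among the lower members all the same. With another background correction (normexp) its difference was -0.23 (adjusted p = 0.743). A filter on all 6 arrays leaves it out, and 29 of 46 members then had non-overlapping lower samples, against 17.7% of all features. Cdca8, the borealin gene, stood at 0.39 and 0.67 against 0.05 and -0.18 (-0.75 ± 0.16, adjusted p = 0.164). Birc5, the survivin gene, differed by -0.59 with overlap at its brightest probe. Incenp, the scaffold, was at 0.75 and 1.12 against 0.89 and 0.62, also with overlap (-0.34 ± 0.19, adjusted p = 0.561).

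Of the 10 kinetochore genes 5 had non-overlapping lower samples and 4 an unadjusted p under 0.05, against 15.8% and 5.85% of all features. Ndc80, a subunit of the complex that grips microtubules, stood at -1.68 and -1.52 in si-NC and at -2.10 and -2.31 in si-SYISL (-0.76 ± 0.14, adjusted p = 0.143). Cenpa, the histone H3 variant of centromeres, stood at 0.11 and 0.35 against -0.32 and -0.67 (-0.89 ± 0.18, adjusted p = 0.151). Both genes were lower in each si-SYISL sample than in each si-NC sample. The other subunits of the Ndc80 complex differed by -0.82 (Spc25), -0.68 (Nuf2) and -0.61 (Spc24), the last with overlap. Among the inner kinetochore proteins Cenph differed by -0.80 without overlap and Cenpn by -0.47 with it. Cenpk was at -0.73 and -0.30 in si-NC and at -0.55 and -0.73 in si-SYISL, within each other's range (-0.29 ± 0.19, adjusted p = 0.689). The large coiled-coil proteins Cenpf and Cenpe differed by -0.52 and -0.36, both with overlap.

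Of the 8 genes of condensin, chromosome structure and the lamina, 6 had non-overlapping lower samples and 2 an unadjusted p under 0.05. Over all features these shares were 15.8% and 5.85%. Lmnb1, which encodes lamin B1 of the nuclear envelope, stood at -0.41 and -0.36 in si-NC and at -1.41 and -1.44 in si-SYISL. It had the largest difference and the smallest p of the list (-1.20 ± 0.11, adjusted p = 0.0847), and within each group its samples lay closer than those of most members, with gaps of 0.05 and -0.03. Over the other settings tried its difference ranged from -1.25 to -1.08. Whether it passed the 0.05 level after adjustment depended on the setting, and counting near-identical arrays as separate samples was among these. Ncapg, a condensin I subunit, stood at -3.85 and -3.47 against -4.22 and -4.27 (-0.75 ± 0.17, adjusted p = 0.170). Top2a, the topoisomerase that untangles sister chromatids, was at -0.44 and -0.35 in si-NC and at -0.53 and -1.03 in si-SYISL (-0.55 ± 0.20, adjusted p = 0.309). The other condensin genes differed by -0.51 (Ncapd2), -0.43 (Smc4), -0.39 (Smc2) and -0.38 (Ncaph), of which Ncaph overlapped. Smc2 and Smc4 were separated narrowly, with the lowest si-NC sample at 0.42 and 2.15 and the highest si-SYISL sample at 0.41 and 2.12. On single arrays Smc2 overlapped, with si-SYISL replicate 1 at 0.45 and si-NC replicate 1 at 0.44. Mki67, the widely used proliferation marker that coats mitotic chromosomes, stood at 1.62 and 2.07 in si-NC and at 2.03 and 1.65 in si-SYISL. Its group means were both 1.84, and its difference was -0.17 ± 0.23 (adjusted p = 0.992). Without replicate 2 of si-NC or of si-SYISL that difference turned to 0.08 or 0.07.

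Among the 6 spindle and cytokinesis genes 3 had non-overlapping lower samples and 1 an unadjusted p under 0.05. The shares of all features were 15.8% and 5.85%. Ect2, which activates RhoA at the cleavage furrow, stood at 0.69 and 1.09 in si-NC and at 0.44 and 0.31 in si-SYISL (-0.68 ± 0.18, adjusted p = 0.205). Anln, the scaffold anillin of the contractile ring, was at 2.22 and 2.55 against 2.09 and 1.78 (-0.62 ± 0.19, adjusted p = 0.244). Prc1, which bundles microtubules of the central spindle, differed by -0.54, and its samples did not overlap. Overlap was present for Tpx2, the activator of Aurora A (-0.49), and for Racgap1 of the central spindle (-0.38). Hmmr, a spindle protein first known as a hyaluronan receptor, was at 0.48 and 0.81 in si-NC and at 0.61 and 0.04 in si-SYISL (-0.49 ± 0.25, adjusted p = 0.433).

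Of the 47 genes 12 had more than 1 probe that passed the filter, which tests the choice of the brightest probe to stand for a gene. Of their 16 dimmer probes 12 (75%) had a more negative difference than the brightest probe of the same gene. Over all 4677 such genes this held for 48.7% of the dimmer probes. Most of these steps were small: the median of dimmer minus brightest was -0.06 for the members and 0.01 over all such genes. The SE of each member probe was larger than that. Non-overlapping lower samples were found for 14 of the 16, against 16.8% of all features when every probe was tested. The brightest probe of Ccnb1 differed by -0.36 ± 0.20, with overlap, and its other probes by -0.86 ± 0.24 and -0.97 ± 0.15, without. Birc5 differed by -0.59 ± 0.25 at the brightest probe and by -0.91 ± 0.19 and -1.10 ± 0.20 at the others. Mad2l1 gave -0.64 ± 0.21, -0.63 ± 0.13 and -1.22 ± 0.11 from the brightest to the dimmest probe. In the fit of every probe the last of these had an adjusted p of 0.0914. Both probes of Ube2c agreed within their error (-1.12 ± 0.24 and -1.13 ± 0.20), and so did both of Mki67 (-0.17 ± 0.23 and -0.23 ± 0.23). At Cdk1 the dimmest of 3 probes gave -0.50 ± 0.13 and the others -0.88 ± 0.16 and -0.85 ± 0.17. Whether the probes of a gene read different transcripts was not tested.

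**Figure D5:**
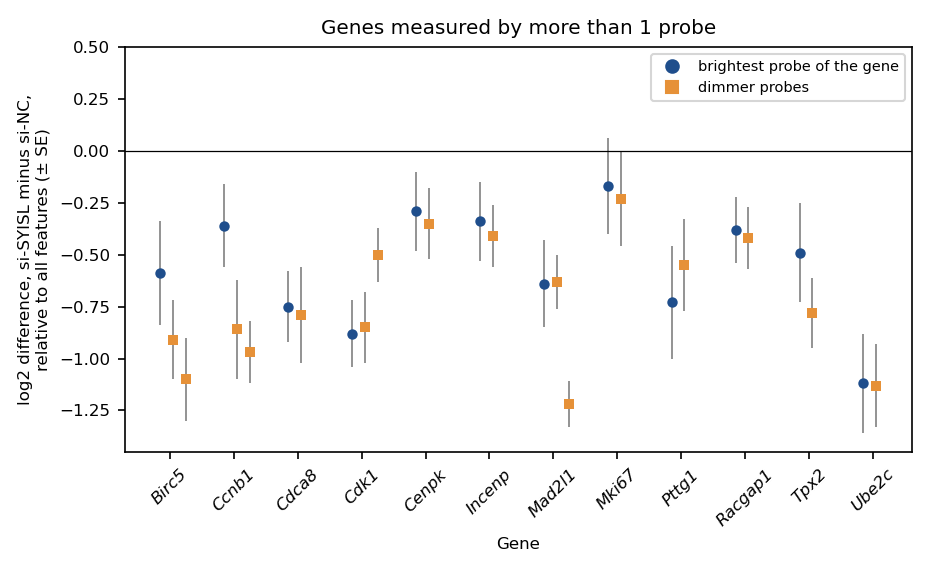
Log2 difference, si-SYISL minus si-NC, relative to the median of all features (vertical axis, with SE bars from 2 samples in each group) for each kept probe of the 12 genes with more than 1, from the brightest to the dimmest. All probes lie below 0, and those of Ccnb1, Birc5 and Mad2l1 differ most among themselves.

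Bright and dim features did not have the same background. With features split by mean level into 4 equal parts, medians without the subtraction were 0.36 for the dimmest part and 0.17, 0.07 and 0.08 for the brighter ones. The members lay mostly in the brighter parts, 20 in each of the upper pair, where their medians were -0.52 and -0.33. All features of that pair had medians of 0.07 and 0.08, below the 0.16 subtracted throughout. Against features of like brightness the differences of these members would thus be less negative than given here.

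Other genes of mitosis were taken from 5 lists. Of 105 genes tested 50 (47.6%) had non-overlapping lower samples, against 15.8% of all features, and 16 had non-overlapping higher ones, against 46.3%. At an unadjusted p under 0.05 there were 28 lower genes (26.7%, against 5.85%), and 0 passed over all features. The lists differed in how far their medians lay from that of all features. Among 34 other kinetochore and checkpoint genes the median was -0.50, 17 did not overlap and were lower, and 3 did not overlap and were higher. Knl1, the scaffold of the outer kinetochore, stood at -3.20 and -2.58 in si-NC and at -3.99 and -4.32 in si-SYISL (-1.43 ± 0.26, adjusted p = 0.132). Ska2, of a complex that couples kinetochores to microtubules, stood at -2.57 and -2.18 against -3.87 and -3.30 (-1.37 ± 0.26, adjusted p = 0.135). Among 23 further spindle and cytokinesis genes, some of them kinesins, the median was -0.63 and 14 were lower without overlap. Kif11, the kinesin that separates spindle poles, differed by -1.15 ± 0.17 (adjusted p = 0.122) and Kif2c, a microtubule depolymerase, by -1.12 ± 0.18 (adjusted p = 0.125). Among 16 regulators of the mitotic kinases the median was -0.42 and 10 were lower without overlap. Pbk, a mitotic protein kinase, differed by -1.05 ± 0.19 (adjusted p = 0.136) and Mastl, the Greatwall kinase, by -0.91 ± 0.17 (adjusted p = 0.140).

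Genes of the anaphase-promoting complex, condensin II and cohesin, taken with some of their regulators, lay nearer to all features. Many of them are needed outside mitosis too. Among 17 genes of the anaphase-promoting complex and its regulators the median was -0.07, with 4 lower and 8 higher without overlap, where 15.8% and 46.3% of all features did so. The lowest in p were Fbxo5, its inhibitor Emi1 (-1.05 ± 0.21, adjusted p = 0.147), and Ube2s (-0.69 ± 0.16, adjusted p = 0.182). Among 15 genes of condensin II and cohesin the median was -0.17, with 5 lower and 3 higher without overlap, to be read against the same 15.8% and 46.3%. Rad21 of cohesin differed by -0.61 ± 0.13 (adjusted p = 0.179) and Stag1 by 0.19 ± 0.11 (adjusted p = 0.184).

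Most markers of differentiated muscle differed the other way. Of 12 markers of differentiated muscle 11 had both si-SYISL samples above both si-NC samples, against 46.3% of all features, with a median difference of 0.59. The lowest p were those of the fast troponin genes Tnnc2 (1.21 ± 0.11, adjusted p = 0.0839) and Tnnt3 (1.24 ± 0.16, adjusted p = 0.0943). Over the 12 markers the summed signal, in units of each array's 75th percentile, was 42.3 to 46.1 on the si-NC arrays and 75.1 to 79.1 on the si-SYISL arrays. Averaged over these markers, si-NC stood at 1.20 and 1.06 and si-SYISL at 1.94 and 1.95 (log2 level), so the 2 samples of si-SYISL lay close, unlike those of the mitotic genes. Myog, named after its values were seen, was the marker whose samples overlapped (-0.02 ± 0.17, adjusted p = 0.602). Of 7 myoblast markers all were well above background on all 6 arrays, and 3 were lower without overlap, against 15.8% of all features. The lowest p were those of the transcription factor genes Msc (-1.51 ± 0.11, adjusted p = 0.0839) and Myod1 (-0.78 ± 0.13, adjusted p = 0.131). Over the 7 markers the summed signal was 37.2 to 40.4 on the si-NC arrays and 35.0 to 36.8 on the si-SYISL arrays. The part of muscle differentiation in the mitotic differences was not tested.

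Markers of cell types that a C2C12 culture should lack gave some signal. Over 4 leukocyte markers the sum was 1.69 to 1.73 on the si-NC arrays and 2.15 to 3.16 on the si-SYISL arrays. The myeloid integrin gene Itgam, named after its values were seen, stood at 0.16 and 0.17 in si-NC against 1.38 and 0.57 (log2 level). For endothelium it was 0.956 to 1.04 against 1.11 to 1.14, for epithelium 0.362 to 0.454 against 0.462 to 0.508, and for adipocytes 0.0752 to 0.0899 against 0.0914 to 0.112. For neurons and glia it was 0.180 to 0.755 against 0.927 to 1.67. Snap25, a synaptic gene also named after its values were seen, stood at -2.89 and -0.54 in si-NC and at 0.66 and -0.23 in si-SYISL. Lep, an adipocyte hormone, was not well above background on any array. For epithelium, for adipocytes and for neurons and glia only 2 of 4 markers were well above background on all 6 arrays. These sums were higher on the si-SYISL arrays too, and their part in the mitotic differences was not tested. They are given without subtraction of the shift over all features, which had a median of 0.36 in the dimmest part.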

How the data were processed

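The authors deposited 6 Agilent scanner files with intensity per spot, background-subtracted and detrended within each array (gProcessedSignal), with median pixel signals and flags of 0 or 1, per the file headers, which name Feature Extraction 11.0.1.1; the submitters' processing notes name 10.5.1.1. RNA input was 1 µg per array. A deposited value table gives log2 levels for 34456 probes, with nearly equal quantiles between arrays, normalised by the authors; it served as an alternative.

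From log2 signals the log2 of the array's 75th percentile, taken without control spots, was subtracted. Spots that are controls or marked as outliers were not used. Of 39429 probes 27234 were named through RefSeq accessions (GRCm38.p6). Probes well above background on all 3 arrays of a group were kept, and the brightest stood for its gene, leaving 28553 features (18633 named). Groups were compared with limma 3.58.1 in R 4.3.3 (lmFit and eBayes, two-sided, Benjamini-Hochberg over all features, 2 residual and 2.37 prior degrees of freedom), which was tested on simulated data. Figures used matplotlib 3.10.9.

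The members and lists were chosen with earlier results of these data known. Values in every sample are given, in each of the 8 roles, for the 2 genes of smallest p and the 1 of largest, and for Ccnb1, Cdk1, Plk1, Aurkb, Top2a and Mki67. Other mitotic lists and both muscle lists are given by counts, with the 2 genes of smallest p, and the remaining marker lists by their summed signal. One further marker list is not reported here.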

Additional observations from a re-analysis of the deposited data

How the results depend on the processing

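The list's median kept its sign under every setting tried, from -0.83 to -0.36 when a replicate was left out and from -0.64 to -0.46 otherwise. Counts of lower members at an unadjusted p under 0.05 ran from 5 to 26 when a replicate was left out. Features called at an adjusted p of 0.05 numbered 183 with normexp background, 46 with the filter on all 6 arrays, 902 with a trended and robust prior, 83 with scan as a block, 1 with the median subtracted, 9762 with the 6 arrays as 6 samples, and 0 to 1372 when a replicate was left out. Taking the 6 arrays as separate samples counts near-identical arrays as replicates. Of the 47 members 12 were then called, against 34.2% of all features. Lmnb1 was also called with normexp, the trended prior, scan as a block and when replicates 1 and 3 of si-NC were omitted, and Cdc25b and Cdk1 with the trended prior. A lone sample left in a group is assumed to vary like the other group. Differences that reversed were those of Mki67 without replicate 2 of si-NC (0.08) or of si-SYISL (0.07) and of Espl1 without si-SYISL replicate 2 (0.12). When replicates were left out they ranged from -0.40 to 0.08 for Mki67 and from -0.92 to 0.12 for Espl1. With the replicate block 0 features were called and 12 members were lower at an unadjusted p under 0.05, against 5.47% of all features. The deviations of same-numbered samples correlated at -0.03 over all features and at 0.14 over the 47 members. No label ties the numbers to a shared culture, so same-numbered samples were not taken as pairs. One alternative was chosen after seeing the data, each sample centred on its median, and gave a list median of -0.61. In it 16 members were lower at an unadjusted p under 0.05, against 8.21% of all features. With 2 samples in each group and 2 residual degrees of freedom, a missed threshold does not show that a gene is unchanged.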
